A study of Mus musculus with 19 samples.

Results

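The 38 collagen genes described here are all protein-coding genes of the mouse annotation whose symbol has the form Col, number, a, number, apart from the 6 collagen IV genes. They are 38 of the 35596 genes quantified in whole vomeronasal organs (VNOs), the paired chemosensory organs at the base of the nasal septum. By the type of assembly that their chains form, 8 are fibrillar, 7 belong to cartilage collagens, 8 to network and beaded-filament collagens, 6 to fibril-associated collagens, 4 span the membrane, 2 are multiplexins, and 3 are anchoring-fibril or other collagens. All 38 had a mean of at least 1 CPM (counts scaled to a common library size of 1e6, with TMM factors, the trimmed mean of M-values), and 37 had at least 10 counts in every library.

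The organs came from female mice at postnatal day 21, and 18 mRNA-seq libraries fall into 6 groups of 3. In the AP-2εCre line, the conditional knockouts (cKO) were AP-2εCre+/-/Smad4 flox/flox, and the controls were AP-2εCre+/- heterozygotes (Het) and Smad4 flox/flox mice without Cre, which the labels call wild type. In the OMPCre line, the groups were OMPCre+/-/Smad4 flox/flox, OMPCre+/- and Smad4 flox/flox in the same way. AP-2εCre is a knock-in at Tfap2e and acts in basal vomeronasal sensory neurons (VSNs) while they are immature, whereas OMPCre acts in both apical and basal VSNs once mature, so in neither line was the gene deleted by design in the cells of bone, cartilage or connective tissue. The heterozygotes of both lines and the cKOs carry Cre, while both cKO groups share the floxed alleles with the Smad4 flox/flox controls. Each library is named a biological replicate in the labels, and the sources used here do not say whether it came from 1 animal or several.

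Collagens are triple-helical proteins, and most of them are secreted into the extracellular matrix. Collagens I, III and V assemble into the fibrils of bone and connective tissue, collagens II, IX, X and XI are known from cartilage, and collagen VI forms beaded filaments around cells. The VNO lies in a capsule of bone and cartilage and holds a large blood vessel, glands and several epithelia, so its collagen RNA comes from many kinds of cell besides the neurons. Smad4 carries signals of the TGFβ and BMP families, which are known regulators of matrix genes in mesenchymal cells.

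Libraries held between 43385516 and 134042284 estimated counts (median 63096714). The targeted gene, Smad4, was at 81.0, 70.5 and 39.6 CPM in the Smad4 flox/flox, 43.9, 79.7 and 41.5 in the Het and 66.1, 66.5 and 33.8 in the cKO libraries of the AP-2εCre line, and at 79.0, 73.4 and 64.6, 83.8, 76.3 and 77.5 and 61.9, 62.4 and 54.4 in the same groups of the OMPCre line. In edgeR's quasi-likelihood test Smad4 differed from the controls by -0.09 ± 0.30 on the log2 scale in AP-2εCre cKOs (SE, unadjusted p = 0.765, adjusted p = 0.955) and by -0.35 ± 0.09 in OMPCre cKOs (unadjusted p = 0.0032, adjusted p = 0.909). The labels name VSNs as the cell type, but whole organs were used: Omp, a gene of mature olfactory and vomeronasal neurons, was at 225 to 549 CPM, while Ibsp and Bglap, which mark osteoblasts, were at 327 to 711 and 143 to 647 CPM. Omp was at 225 to 287 CPM in the libraries that carry OMPCre and at 293 to 549 in all others. The third Smad4 flox/flox library of each line stood apart with the lowest collagen total and the lowest Bglap of its line. That of the OMPCre line also held 193 CPM over 8 skeletal muscle genes, against at most 11.1 in any other library, and 341 CPM of the basal keratin Krt14. Fewer cells of a type and less RNA per cell cannot be told apart in RNA of a whole organ.

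The collagen genes together held between 2.1% and 5.1% of all counts in a library. Most of it was fibrillar: Col1a1, Col1a2 and Col3a1, the chains of collagens I and III, made up 81.1% to 87.0% of the collagen CPM of a library, with a median of 85.8%. Collagens V and XI, which lie inside heterotypic fibrils, followed with a median of 5.66%, and collagen VI with 2.86%. The collagens of hyaline and growth-plate cartilage, II, IX and X, were a minor part with a median of 0.150%.

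Between genes, levels can be compared only per transcript length. Per kilobase of the longest coding transcript, Col1a2 (1994 ± 636 CPM per kilobase, SD, n = 6) and Col1a1 (1988 ± 708) were level with each other in the 6 Smad4 flox/flox libraries. Col3a1 followed at 509.7 ± 162 and Col5a2 at 98.9 ± 25.8 CPM per kilobase. The next members, Col6a1, Col6a2, Col5a1, Col12a1, Col16a1, Col11a2, Col11a1 and Col6a3, lay between 36.1 and 67.2. At the other end Col6a5, Col19a1, Col6a6 and Col6a4 were under 1 CPM per kilobase, and Col6a4 was lowest at 0.203.

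**Figure D1:**
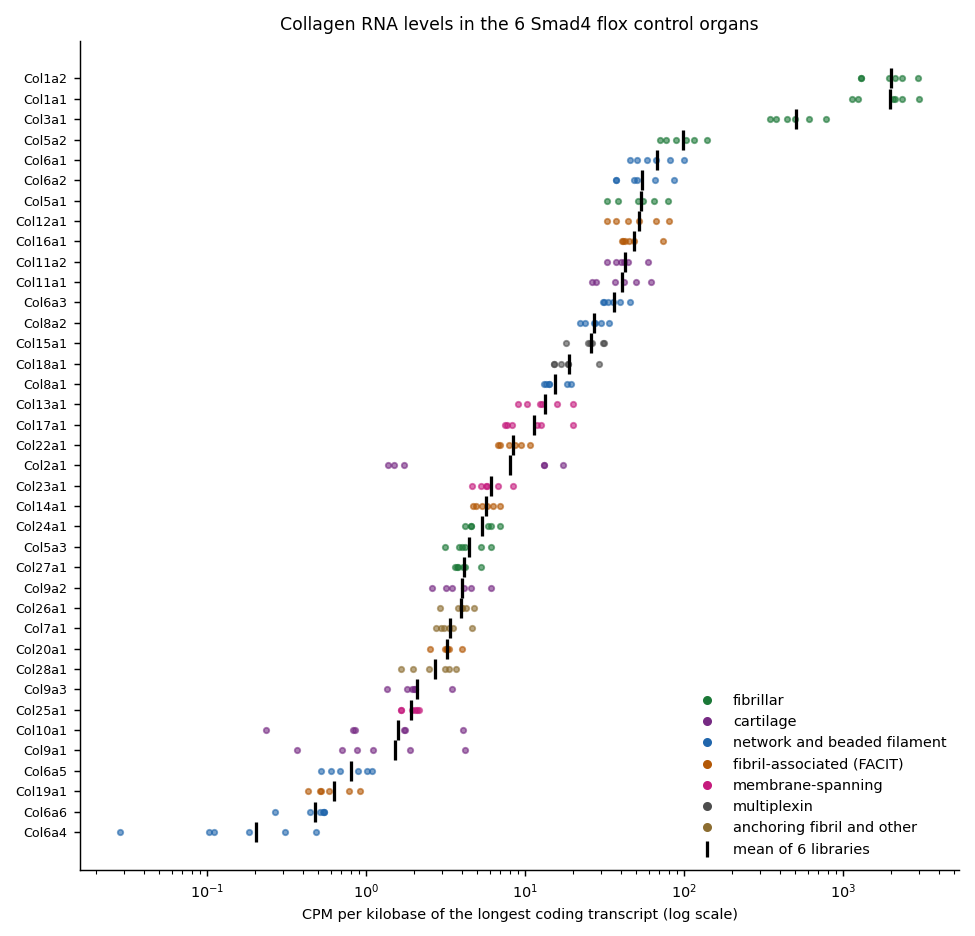
RNA level of each of the 38 members in the 6 Smad4 flox/flox control libraries, as CPM per kilobase of the longest coding transcript on a log axis; each point is a library, each tick the mean, and colours give the type of collagen. Col1a1, Col1a2 and Col3a1 stand apart at the top, and the points of Col2a1, Col9a1, Col10a1 and the scarce Col6a4 are widely spread between libraries.

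On the TPM (transcript abundance scaled to a constant sum per library) deposited for each transcript and added per gene, the 12 highest members were, in order, Col1a1, Col1a2, Col3a1, Col16a1, Col5a2, Col15a1, Col12a1, Col6a3, Col11a2, Col5a1, Col6a1, Col6a2. Between neighbours, Col1a1 exceeded Col1a2, Col3a1 exceeded Col16a1 and Col5a2 exceeded Col15a1 in 6 of 6 libraries, and the other 8 neighbours changed places in at least 1 library. With 6 libraries the exact sign-flip test cannot go below 0.031, and after adjustment over the 11 neighbours no pair passed 0.05 (lowest adjusted p = 0.115). The places of some members rest on short noncoding transcripts, which add to TPM far more than to counts. Col16a1 was above Col5a2 by TPM (224 ± 73.4 against 166 ± 41.1, SD, n = 6) but below it by CPM per kilobase, and Col26a1, a secreted collagen of testis and ovary, was at 23.1 ± 5.85 TPM but only 3.97 ± 0.613 CPM per kilobase. On the latter scale, chosen after the TPM had been seen, Col1a1 and Col1a2 differed by -0.02 ± 0.09 (mean log2 difference, SD, n = 6), while Col1a2 was above Col3a1 by 1.96 ± 0.13 in 6 of 6 libraries (adjusted p = 0.043, exact sign-flip test). The neighbours on both scales were taken from the TPM order of these same 6 libraries, so the test is no support for the order.

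Sequences upstream of 3 genes are shown because Col1a2 and Col3a1 are, with Col1a1, the most abundant members and varied together between libraries, and because Col18a1 had the lowest p of any member. They come from RefSeq (GRCm38.p6), are written 5′ to 3′ on the strand of the gene, and end just before the earliest start annotated in the window. The Col1a2 stretch also lies, apart from its first 2 bases, in an intron of a longer annotated transcript that starts farther upstream. Capitals mark CAGAC or its reverse complement GTCTG, the core that Smad proteins are known to bind.

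Col1a2, chr6:4505368-4505492, plus strand: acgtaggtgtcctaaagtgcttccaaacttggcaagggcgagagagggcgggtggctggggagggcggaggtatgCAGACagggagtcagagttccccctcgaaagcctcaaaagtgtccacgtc
Col3a1, chr1:45311288-45311537, plus strand: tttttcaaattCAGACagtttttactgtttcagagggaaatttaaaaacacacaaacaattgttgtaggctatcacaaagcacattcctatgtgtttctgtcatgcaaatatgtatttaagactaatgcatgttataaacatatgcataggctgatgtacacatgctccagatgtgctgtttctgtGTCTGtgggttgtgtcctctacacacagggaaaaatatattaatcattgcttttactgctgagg
Col18a1, chr10:77166549-77166780, minus strand: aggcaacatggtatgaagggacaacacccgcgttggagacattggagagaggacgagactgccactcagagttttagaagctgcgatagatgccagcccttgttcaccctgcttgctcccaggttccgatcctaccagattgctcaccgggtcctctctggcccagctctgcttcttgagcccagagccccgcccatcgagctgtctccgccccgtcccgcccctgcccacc

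The core occurs 1 time in the Col1a2 stretch, 2 times in that of Col3a1 and not in that of Col18a1. A promoter window of 300 bases, 250 before and 50 after the start, was found for 30 of the 38 members, in 33 windows. On either strand 18 of the 33 (54.5%) held CAGAC, against 49.6% of all 32851 windows. The TATAAA motif was in 5 (15.2%) against 13.6% of all windows, and CCAAT in 10 (30.3%) against 37.4%. The letters CAGAC are thus about as common before collagen genes as before genes at large, and a match is a description of the letters only.

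Fibrillar collagens. Col1a1 (ENSMUSG00000001506, chr11:94936224-94953042, GRCm38, plus strand) and Col1a2 (chr6:4504814-4541544) encode the chains of collagen I, the main protein of bone and tendon. Col1a1 was at 13922, 17931 and 7346 CPM in the Smad4 flox/flox, 12999, 13973 and 13893 in the Het and 16919.5, 15324 and 18897 in the cKO libraries of the AP-2εCre line. The OMPCre line had 12235, 12550.0 and 6756, 12667, 13876 and 16345 and 8777, 14636 and 14413 CPM. The third Smad4 flox/flox library was lowest in each line, and cKO and control libraries overlapped in both lines. Col1a2 ranged from 6931 to 16474 CPM, and Col3a1, the chain of the collagen III of soft tissue and vessels, from 1931 to 5222. Col3a1 (chr1:45311538-45349706) lies next to Col5a2 (chr1:45374321-45503282), which is read from the opposite strand. Col5a1 (277 to 747 CPM) and Col5a2 (465 to 1189 CPM) encode the chains of collagen V, which starts fibrils, and Col5a3 was an order of magnitude lower (18.2 to 37.4 CPM). Col24a1, of developing bone, and Col27a1, of cartilage matrix, had 30.1 to 70.3 and 25.3 to 49.8 CPM.

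Cartilage collagens. The 7 members of this type did not behave as 1 group. Col11a1 and Col11a2, chains of the collagen XI that nucleates fibrils, ranged from 202 to 529 and 192 to 471 CPM. Col2a1 (chr15:97975602-98004695), the chain of collagen II and the main collagen of hyaline cartilage, was lower and far more uneven. In the AP-2εCre line Col2a1 was at 66.8, 88.3 and 7.71 CPM in Smad4 flox/flox, 92.8, 69.2 and 84.1 in Het and 23.4, 54.8 and 37.5 in cKO libraries. In the OMPCre line it was at 67.5, 8.78 and 6.995, 18.8, 21.0 and 24.2 and 11.2, 10.5 and 8.90 CPM. Thus all AP-2εCre-line controls but the third Smad4 flox/flox library were at 66.8 CPM or above, and all OMPCre-line controls but the first Smad4 flox/flox library at 24.2 CPM or below. Col10a1, the collagen of hypertrophic cartilage, had the largest spread of all members, with a coefficient of variation (CV, SD over mean) of 1.76 over the 12 controls. Its level was 2.58, 5.42 and 0.736 CPM in Smad4 flox/flox, 77.1, 4.39 and 21.1 in Het and 2.57, 27.0 and 4.86 in cKO libraries of the AP-2εCre line, and 0.384 to 12.8 CPM over the OMPCre line. Col9a1, Col9a2 and Col9a3, the chains of the collagen IX that coats collagen II fibrils, ranged from 1.41 to 20.6, 7.63 to 20.4 and 3.89 to 12.4 CPM.

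Network and beaded-filament collagens. Col6a1 (chr10:76708792-76726168) and Col6a2 (chr10:76595762-76623630), neighbours on the same strand, encode chains of collagen VI and ranged from 187 to 433 and 172 to 431 CPM. Col6a3, the other classical chain, had 292 to 555 CPM. The later chains Col6a4, Col6a5 and Col6a6, paralogs that lie side by side on chromosome 9, reached at most 3.55, 10.3 and 5.66 CPM, and reads that they share were divided between them by estimation. Col8a1 and Col8a2, short-chain collagens of vessel walls and the cornea, had 60.9 to 149 and 96.1 to 216 CPM.

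Fibril-associated collagens. Col12a1 (379.5 to 1162 CPM), whose protein lies on collagen I fibrils under load, and Col16a1 (197 to 493 CPM) were the highest of the 6. Col22a1, known from tissue junctions such as that of muscle and tendon, and Col14a1 had 56.0 to 113 and 26.3 to 65.0 CPM. Col20a1 and Col19a1 were low, with 12.0 to 24.0 and 1.02 to 5.41 CPM.

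Membrane-spanning, multiplexin and other collagens. Col17a1, the hemidesmosomal collagen of basal keratinocytes, ranged from 40.2 to 112 CPM with its highest value in the third Smad4 flox/flox library of the OMPCre line, which also had the most Krt14. Col13a1, found at neuromuscular junctions and in mesenchyme, was at 28.6 to 66.1 CPM, Col23a1 at 26.3 to 49.96 and Col25a1, known from neurons, at 9.87 to 17.1. Col15a1 (93.2 to 191 CPM) and Col18a1 (75.7 to 175 CPM), basement-membrane collagens with glycosaminoglycan chains, are the multiplexins, and the C-terminal part of the Col18a1 protein is known as endostatin. Col7a1, which forms the anchoring fibrils under stratified epithelium, had 20.1 to 42.8 CPM, Col26a1 8.16 to 15.8 and Col28a1, found around Schwann cells, 6.999 to 19.996.

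**Figure D2:**
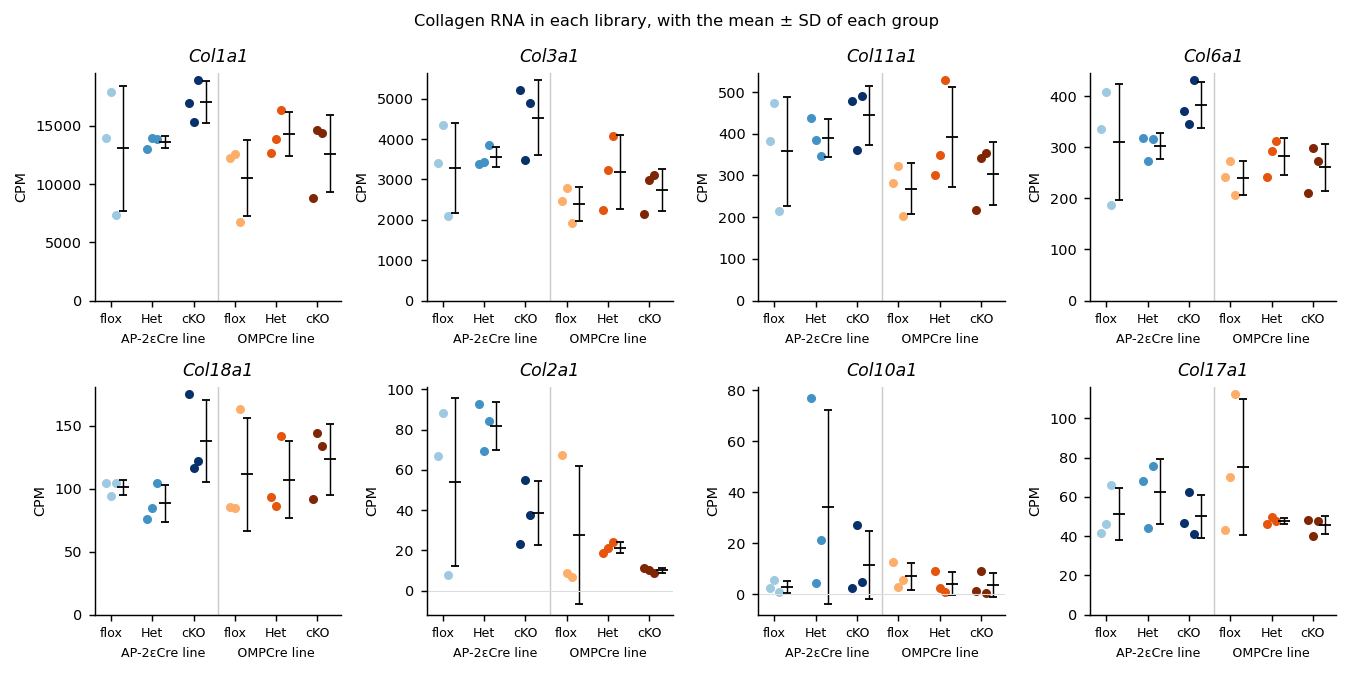
TMM-normalized CPM of 8 members in each of the 18 libraries, with points in the order of the replicate numbers and the mean ± SD (n = 3) beside them. Col1a1, Col3a1, Col11a1 and Col6a1 are lowest in the third Smad4 flox library of each line, Col18a1 of the AP-2εCre cKO libraries lies above all 6 controls of that line, and Col2a1 and Col10a1 are uneven within groups.

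AP-2εCre cKOs were compared with their 6 controls to see which genes respond to the loss of Smad4 from immature basal VSNs. None of the 38 members passed the adjusted threshold in edgeR's quasi-likelihood test, against 7 of 18495 genes tested (0.0378%). At an unadjusted p under 0.05 there were 4 members, Col18a1 and Col16a1 higher and Col7a1 and Col25a1 lower, or 10.5% of them. The share over all genes tested was 10.2%, close to that of the members. The cKO and heterozygote comparisons of a line share the Smad4 flox/flox libraries, so their values are not independent.

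Col18a1 (chr10:77052178-77166548) was at 175, 116 and 122 CPM in the 3 AP-2εCre cKO libraries, 104, 94.3 and 105 in Smad4 flox/flox and 75.7, 85.0 and 104 in Het libraries. All cKO values lay above all control values, which held for no other member and for 2.21% of genes tested. Groups without overlap in either direction made up 5.06% of genes tested and again only Col18a1 among the members. The difference was 0.55 ± 0.15 (SE) on the log2 scale (unadjusted p = 0.00398, adjusted p = 0.308 in edgeR; exact permutation p = 0.0119, the smallest that 84 splits allow). DESeq2, the study's tool, put it at 0.54 with an adjusted p of 0.0395, 1 of the 319 genes that it called. Without the first cKO library the difference was 0.33. Among libraries whose names have a letter and a number it was 0.41, and among those named by line 0.74 (log2 ratio of means). About 89.8% of its estimated counts belonged to the transcript Col18a1-202, which starts at the upstream promoter shown above. In OMPCre cKOs Col18a1 was at 91.4, 144 and 134 CPM, against 85.7, 84.9 and 163 and 93.1, 86.1 and 142 in the controls, a difference of 0.17 ± 0.25 (SE) (unadjusted p = 0.51, adjusted p = 1 in edgeR), and groups overlapped. The third Smad4 flox/flox library had the highest of these control values, and without it the difference was 0.32. It was 0.34 without the first, 0.04 without the second and 0.11 without the third cKO library, 0.11 without the first or the second Smad4 flox/flox, 0.11 without the second and 0.26 without the third Het library, and 0.27 with counts scaled by transcript length.

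The other members with a low p in AP-2εCre cKOs overlapped with their controls. Col16a1 was at 493, 292 and 431 CPM in cKO libraries and at a lowest, median and highest of 212, 256 and 385 in controls (0.51 ± 0.22 (SE) log2, unadjusted p = 0.0438, adjusted p = 0.469 in edgeR). Col7a1 was at 23.4, 23.6 and 21.3 CPM against 23.1, 30.8 and 42.8 (-0.47 ± 0.18 (SE) log2, unadjusted p = 0.0244, adjusted p = 0.405 in edgeR). The neuronal collagen Col25a1 was at 13.5, 9.99 and 9.87 CPM against 11.2, 14.1 and 17.1 (-0.34 ± 0.15 (SE) log2, unadjusted p = 0.0457, adjusted p = 0.477 in edgeR). Against the Smad4 flox/flox libraries alone the Col25a1 difference was -0.22. How many members had an unadjusted p under 0.05 rested on single libraries: 11 without the second and 2 without the first Smad4 flox/flox library, 2 without the second Het library, and 7 and 1 without the second and the third cKO library, with none called.

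By type, the estimates of all 8 fibrillar members were above 0 in AP-2εCre cKOs, from 0.24 to 0.41 (median 0.31), and none had an unadjusted p under 0.05. Over all 38 members, 25 estimates were above 0 with a median of 0.24, while the median of all genes tested was 0.00. Without the first cKO library the median of the 38 was 0.04, and that of the fibrillar members 0.18. Without the third Smad4 flox/flox library these medians were 0.17 and 0.23. Summed over the fibrillar members, cKO libraries held 32750.4 to 41023 CPM, Smad4 flox/flox libraries 17275 to 39744 and Het libraries 30576 to 32326. The cKO sums thus overlapped with those of Smad4 flox/flox libraries and lay above the Het sums. Among cartilage members the 5 chains of collagens II, IX and X were below 0, with Col2a1 at -0.82 ± 0.58 (SE) and Col10a1 at -0.68 ± 1.27 (SE), and Col11a1 and Col11a2 above 0. Without the second cKO library Col2a1 was at -1.16, and without the first at -0.56. The Col10a1 value rested on single libraries, since it was -2.33 without the second, -0.21 without the first and -0.32 without the third cKO library, and 0.76 without the first Het library. Against the Smad4 flox/flox libraries alone 6 of 7 cartilage members were above 0, and 4, 5 and 4 were without the first Het, the third Het and the third cKO library, so the type had no stable direction. The 13 chondrocyte markers summed to 169.6 to 244 CPM in cKO, 131 to 242 in Smad4 flox/flox and 175 to 321 in Het libraries, with 9 of 13 below 0, and their part in these values was not tested. Of the network members 6 of 8 were above 0 (median 0.28, and 0.16 without the first cKO library), and of the fibril-associated members 4 of 6.

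**Figure D3:**
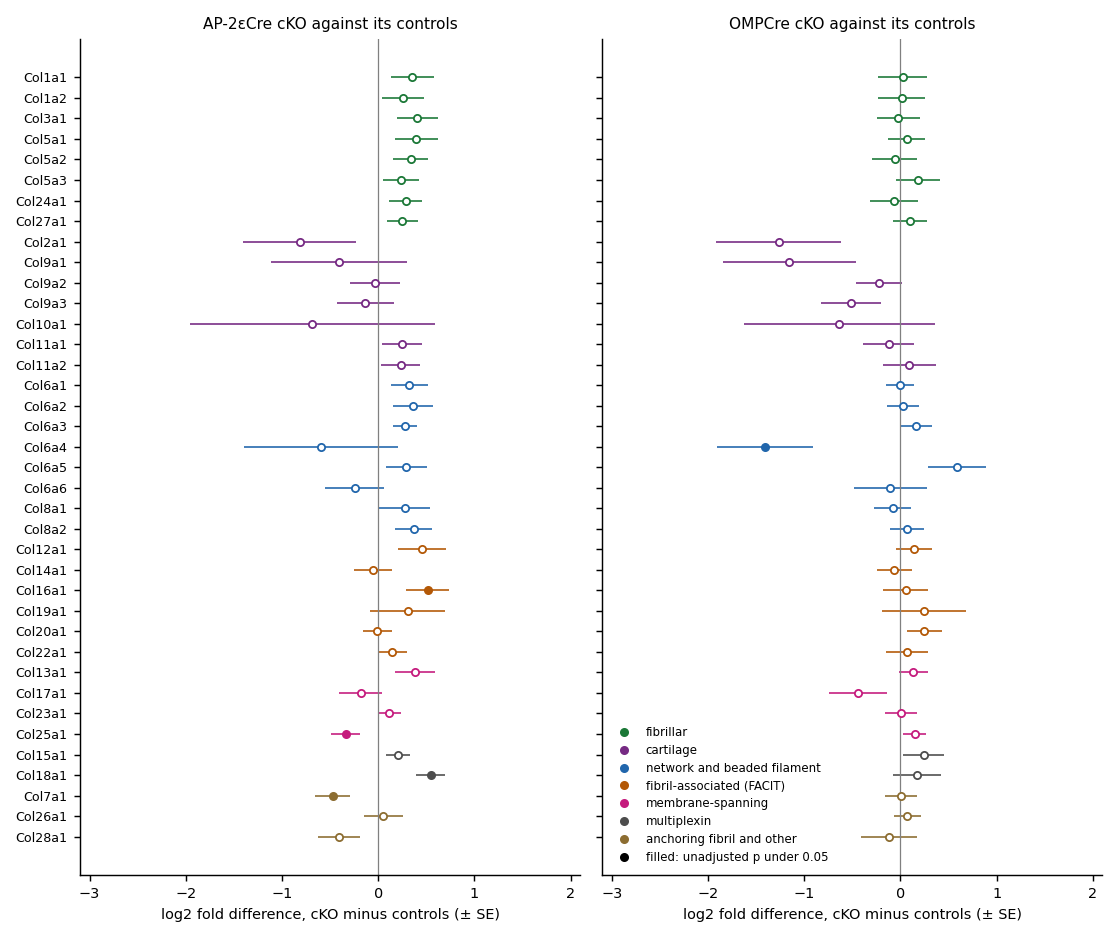
Log2 fold difference of each member between cKO and control libraries with its SE, from edgeR, for the AP-2εCre line (left) and the OMPCre line (right), ordered and coloured by type; filled points have an unadjusted p under 0.05. The 8 fibrillar members lie right of 0 on the left and on both sides of 0 on the right, and no member passes the adjusted threshold.

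OMPCre cKOs address the loss of Smad4 from mature neurons. No gene was called among 18623 tested (0%), members included, although 735 genes (3.95%) had an unadjusted p under 0.05 in edgeR and DESeq2 called 44 genes, none of them a member. The only member with an unadjusted p under 0.05, 2.63% of the 38, was Col6a4, a minor chain of collagen VI. It was at 0.358, 0.499 and 0.787 CPM in cKO libraries, 0.759, 1.36 and 0.812 in Smad4 flox/flox and 1.13, 1.81 and 2.86 in Het libraries (-1.41 ± 0.50 (SE) log2, unadjusted p = 0.0187, adjusted p = 1 in edgeR). These are low levels and the groups overlapped, and against the Smad4 flox/flox libraries alone the difference was -0.84, and with counts scaled by transcript length -2.13. No member was without overlap between cKO and control libraries, against 2.34% of genes tested. The 38 estimates had a median of 0.02 with 22 above 0, and with 1 library left out this median ran from -0.11 without the third to 0.18 without the first cKO library. It was also below 0 without the second cKO, the third Smad4 flox/flox or the first Het library, so it has no stable direction. Without the second and the third Smad4 flox/flox library, and with the replicate numbers as a block, 3, 2 and 2 members had an unadjusted p under 0.05. The fibrillar members lay between -0.07 and 0.18, 5 of 8 above 0, and with 1 library left out between 1 (without the second cKO library) and 8 of them (without the first cKO or the third Het library) were above 0. Of the cartilage members 6 of 7 were below 0, with Col2a1 at -1.27 ± 0.65 (SE) and Col9a1 at -1.16 ± 0.69 (SE). Without the first Smad4 flox/flox library, which held the most Col2a1 of the controls, these were -0.64 and -0.40. The median of the cartilage members was -0.51, and -0.21 without that library, -0.23 without the first and -0.24 without the third cKO library. Of 12 chondrocyte markers tested 8 were below 0, and the list summed to 167 to 183 CPM in cKO, 126 to 263 in Smad4 flox/flox and 158 to 187 in Het libraries; their part was not tested. Of 8 pericyte and smooth muscle markers all were above 0 (median 0.17), while all 8 skeletal muscle markers (median -2.87), all 6 blood markers (-0.26, 1 of them at an unadjusted p under 0.05), 7 of 8 basal epithelial (-0.37, 1) and 7 of 8 glial markers (-0.17, 2) were below 0. Their part was not tested either.

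Whether the cKO effect differed between the 2 lines was examined with an interaction term, fitted to all 18 libraries. No member and no other gene of 19465 was called (0%), while 956 genes (4.91%) had an unadjusted p under 0.05 in edgeR and DESeq2 called 18, none of them a member. Col25a1 was the 1 member (2.63%) under 0.05 without adjustment, with an OMPCre effect above the AP-2εCre effect by 0.49 ± 0.19 (SE) on the log2 scale (unadjusted p = 0.0186, adjusted p = 1 in edgeR). Col25a1 was at 14.2, 15.1 and 13.9 CPM in OMPCre cKO libraries and at a lowest, median and highest of 11.1, 12.6 and 15.5 in their controls, and it had no unadjusted p under 0.05 in this test without the second or without the third AP-2εCre cKO library. All 8 fibrillar estimates of this difference were below 0 (median -0.33, lowest adjusted p over the members = 1 in edgeR). Against the heterozygous controls alone the median was -0.50, against the Smad4 flox/flox controls alone 7 of 8 were below 0 with a median of -0.15, and without the first OMPCre cKO library 6 of 8 with a median of -0.14. The median was -0.21 without the first AP-2εCre cKO and -0.20 without the third AP-2εCre Smad4 flox/flox library. One estimate was above 0 without the first or second AP-2εCre Het, the first AP-2εCre cKO, the third OMPCre Smad4 flox/flox or the third OMPCre Het library. The higher fibrillar values in AP-2εCre cKOs were not shown to set them apart from OMPCre cKOs. Also below 0 were all 7 osteoclast (median -0.46), 6 blood (-0.46) and 8 skeletal muscle markers (-3.22). Of these 3, 2 and 2 had an unadjusted p under 0.05 in edgeR. Below 0 too were 5 of 5 cross-linking enzymes and 12 of 14 matrix proteases and inhibitors. Osteoblast and basal epithelial markers were mixed, with 7 of 11 and 4 of 8 below 0. The part of these lists was not tested.

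Heterozygotes and Smad4 flox/flox controls of the AP-2εCre line differed in 4 genes of 17827 (0.0224%), none of them a member. An unadjusted p under 0.05 was reached by 4 members (10.5%) against 5.18% of all genes tested, all 4 higher in heterozygotes. Of these, 3 were cartilage collagens: Col10a1 (3.55 ± 1.06 (SE) log2, unadjusted p = 0.0111, adjusted p = 0.764 in edgeR), Col9a1 (1.59 ± 0.65 (SE), unadjusted p = 0.0402, adjusted p = 0.931) and Col9a3 (0.64 ± 0.27 (SE), unadjusted p = 0.0449, adjusted p = 0.949). The other was Col8a1 (0.62 ± 0.21 (SE) log2, unadjusted p = 0.0195, adjusted p = 0.82 in edgeR). Col9a1 was at 13.2, 5.04 and 20.6 CPM in Het and 4.22, 7.24 and 1.41 in Smad4 flox/flox libraries, and Col9a3 at 9.53, 5.81 and 12.4 and 6.18, 6.11 and 5.52. In both genes the first and the third Het libraries were high and the second lay among the Smad4 flox/flox libraries. Without the first Het library the Col10a1 difference was 2.13, and without the third Het library that of Col9a3 was 0.37. Without the first Het library 1 member had an unadjusted p under 0.05, and without the first Smad4 flox/flox library 2. All 7 cartilage members had estimates above 0 (median 0.60), 6 of 7 did without the third Smad4 flox/flox library (median 0.40), and the median was 0.37 without the third Het library. Of 12 chondrocyte markers tested 3 (Matn3, Matn1 and Cnmd) were likewise higher at an unadjusted p under 0.05, and 10 had estimates above 0. Their sum was 175 to 321 CPM in Het and 131 to 242 in Smad4 flox/flox libraries, no marker of the list was at 0 in every library, and the part of cartilage content in the result was not tested. Of 8 basal epithelial markers 7 were above 0 (median 0.20), 1 of them at an unadjusted p under 0.05 in edgeR. Krt14 among them was at 56.3, 18.9 and 94.6 CPM in Het and 15.9, 16.8 and 25.9 in Smad4 flox/flox libraries. The part of these cells was not tested either. Col8a1 was at 149, 87.2 and 122 CPM in Het and 94.1, 71.8 and 67.3 in Smad4 flox/flox libraries, with overlap.

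In the OMPCre line 8 of 18124 genes were called between heterozygotes and Smad4 flox/flox controls (0.0441%), and again no member. The 4 members with an unadjusted p under 0.05 (10.5%, against 5.54% of all genes tested) were Col11a2, Col13a1 and Col24a1, higher in heterozygotes, and Col6a6, lower. Col13a1 was at 42.4, 50.7 and 52.9 CPM in Het and 40.3, 39.2 and 32.3 in Smad4 flox/flox libraries (0.38 ± 0.13 (SE) log2, unadjusted p = 0.0191, adjusted p = 0.868 in edgeR). Col11a2 was at 261, 295 and 459 and 243, 255 and 197 CPM (0.54 ± 0.22 (SE) log2, unadjusted p = 0.0451, adjusted p = 0.876 in edgeR). For both genes the groups did not overlap, and the exact permutation p was 0.1, the smallest that 3 against 3 allows. Groups without overlap were found for 11.6% of genes tested and for 5 of 38 members, the others being Col1a1 (higher in Het), Col6a6 and Col7a1 (lower), a share near that of all genes. In the AP-2εCre line it was 1 member, Col25a1, against 9.87% of genes. Col24a1 was at 42.4, 47.4 and 66.2 and 32.7, 43.8 and 30.1 CPM (0.55 ± 0.21 (SE) log2, unadjusted p = 0.0344, adjusted p = 0.876 in edgeR), and Col6a6 at 3.55, 2.23 and 3.23 and 4.72, 4.50 and 4.80 CPM (-0.64 ± 0.23 (SE) log2, unadjusted p = 0.0292, adjusted p = 0.876 in edgeR). The Het values of Col6a6 all lay below the Smad4 flox/flox values (exact permutation p = 0.1), while those of Col24a1 overlapped. The third Het library held the highest Col11a2 and Col24a1, and without it their differences were 0.26 and 0.34. With counts scaled by transcript length that of Col11a2 was 0.34. Of 38 estimates, 25 were above 0 (median 0.15, -0.05 without the third and 0.28 without the first Het library, and 0.20 without the third Smad4 flox/flox library). The number of members with an unadjusted p under 0.05 was 13 without the first, 0 without the second and 2 without the third Het library, and 1 without the third Smad4 flox/flox library. With the replicate numbers as a block it was 8, and the 8 genes called became 0. Of the fibrillar members 7 of 8 were above 0, with a median over the 8 of 0.42, and of 0.23 without the third Smad4 flox/flox or 0.18 without the third Het library. All 11 osteoblast and osteocyte markers were also above 0, 4 of them at an unadjusted p under 0.05, and their sum was 1655 to 2161 CPM in Het and 1061 to 1757 in Smad4 flox/flox libraries. None of these markers was at 0 in every library, and the part of bone in the dissected organ was not tested. All 8 basal epithelial markers were below 0 (median -0.49), 4 of them at an unadjusted p under 0.05, with sums of 624 to 674 CPM in Het and 663 to 1527 in Smad4 flox/flox libraries. All 8 skeletal muscle markers were below 0 as well (median -3.39, none at an unadjusted p under 0.05), with sums of 4.46 to 11.1 and 3.60 to 193 CPM. The third Smad4 flox/flox library held the highest sum of both lists, and the part of these cells was not tested.

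Between the controls of the 2 lines, 17 of 17912 genes were called (0.0949%) and no member. Col2a1, with 6.995, 19.9 and 67.5 CPM as lowest, median and highest in the OMPCre line and 7.71, 76.7 and 92.8 in the AP-2εCre line, was lower in the former (-1.47 ± 0.59 (SE) log2, unadjusted p = 0.0261, adjusted p = 0.723 in edgeR; exact permutation p = 0.0519). Col23a1 was higher in the OMPCre line, with 29.8, 37.5 and 49.96 CPM as lowest, median and highest against 26.3, 31.002 and 33.7 (0.37 ± 0.12 (SE) log2, unadjusted p = 0.00892, adjusted p = 0.579 in edgeR). These were 2 of 38 members (5.26%), against 6.57% of all genes tested. All 7 cartilage members and 7 of 8 fibrillar members had estimates below 0, and the median of the 38 was -0.13. The fibrillar median was -0.12, but -0.03 with 4 of 8 below 0 without the second AP-2εCre Smad4 flox/flox library. It was -0.05 without the third OMPCre Smad4 flox/flox, -0.22 without the third AP-2εCre Smad4 flox/flox and -0.22 without the third OMPCre Het library. Of the cartilage members 1 was above 0 without the third AP-2εCre Het or without the second OMPCre Smad4 flox/flox library, and their median of -0.39 was -0.20 without the former and -0.66 without the first OMPCre Smad4 flox/flox library. With counts scaled by transcript length 2 of 7 cartilage and 2 of 8 fibrillar members were above 0 (medians -0.40 and -0.17). Without the third Smad4 flox/flox library of each line, chosen after the values were seen, 7 members had an unadjusted p under 0.05 and the median was -0.17. The number was 9 without the third Smad4 flox/flox or 4 without the second Het library of the AP-2εCre line, and 4 without the first Smad4 flox/flox, 1 without the first Het or 6 without the third Het library of the OMPCre line. The median was -0.25 without the third OMPCre Het, -0.21 without the third AP-2εCre Smad4 flox/flox and -0.08 without the third AP-2εCre Het library. Of the chondrocyte markers 10 of 13 were below 0, with 1 at an unadjusted p under 0.05. The list summed to 126 to 263 and 158 to 187 CPM in the 2 control groups of the OMPCre line, and its part was not tested. Of the other marker and pathway genes 1 was called here, Alas2, which encodes the haem synthesis enzyme of red cell precursors. It was at 68.5, 73.0 and 97.4 CPM as lowest, median and highest in the OMPCre-line controls and 34.1, 41.2 and 55.1 in those of the AP-2εCre line, so the groups did not overlap, as in 0.497% of genes tested and no member (0.90 ± 0.12 (SE) log2, adjusted p = 0.0106 in edgeR). Of the 6 blood markers 2 were higher at an unadjusted p under 0.05, and so were all 4 skeletal muscle markers tested (median 1.56). The muscle list summed to 3.60 to 193 and 4.46 to 11.1 CPM in the OMPCre-line controls and 3.80 to 3.98 and 3.14 to 4.39 in those of the AP-2εCre line. The part of both lists in the collagen values was not tested.

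Across the 18 libraries the members fell into patterns that cut through the types. Fibrillar members followed Col1a1: over libraries the Pearson correlation of log2(CPM + 1) with Col1a1 was 0.969 for Col1a2, 0.946 for Col5a1, 0.887 for Col5a2 and 0.881 for Col3a1, but 0.0670 for Col5a3. Col11a1 (0.924), Col6a2 (0.912), Col13a1 (0.904), Col12a1 (0.851) and Col22a1 (0.825) shared this pattern. The chains of collagen IX did not, with 0.0624 to 0.226, but went with Col2a1 (0.530 to 0.764), as did Col10a1 (0.604). Over these 18 libraries members of the first pattern had similar values with Col2a1, such as Col6a2 (0.597), Col11a1 (0.556) and Col3a1 (0.546). Col17a1 (-0.609) and Col7a1 (-0.415), both of stratified epithelium, ran opposite to Col1a1. That opposition rested on the third Smad4 flox/flox library of each line, since over the other 16 libraries, a set chosen after the values were seen, the correlation with Col1a1 was -0.194 for Col17a1 and 0.0175 for Col7a1. Over those 16 the values for Col1a2, Col5a1, Col5a2 and Col3a1 were 0.933, 0.936, 0.870 and 0.868, and that for Col5a3 was 0.442. Col11a1, Col6a2, Col13a1, Col12a1 and Col22a1 were at 0.886, 0.895, 0.838, 0.854 and 0.788. Col2a1 itself had 0.537 with Col1a1 over 18 and 0.277 over 16 libraries, and Col18a1 0.0545 and 0.533. The correlations of Col9a1, Col9a2, Col9a3 and Col10a1 with Col2a1 over the 16 were 0.753, 0.608, 0.791 and 0.607. Those of Col6a2, Col11a1 and Col3a1 with Col2a1 were 0.431, 0.358 and 0.374. These values are descriptions over libraries that share their scaling within each library.

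**Figure D4:**
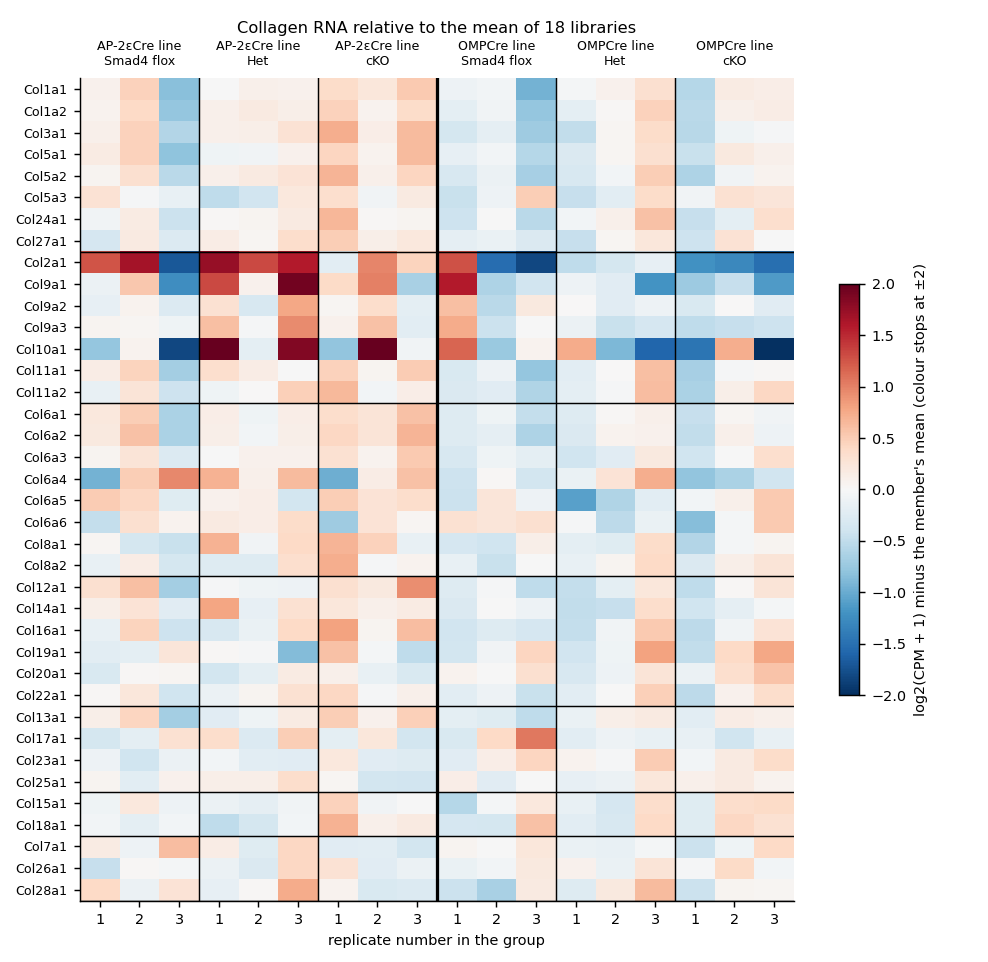
Log2(CPM + 1) of each member in each of the 18 libraries minus the member's mean, in colour (red above, blue below, cut at 2), with members in rows by type and libraries in columns by group. Most fibrillar rows, Col11a1, Col11a2 and the Col6a1 to Col6a3 rows share their light and dark columns, with the third Smad4 flox library of each line blue, whereas Col2a1, the Col9 rows and Col10a1 have a pattern of their own.

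Of 6 pairs chosen for shared protein or cell type, all were correlated (permutation test of 100000 resamples, adjusted over 6 pairs). Partners in 1 protein had r = 0.969 (Col1a1 with Col1a2, rho = 0.901, permutation p = 1e-05 and 1e-05, adjusted 2e-05 and 3e-05, n = 18), where 1e-05 is the smallest p these resamples can give. For Col6a1 with Col6a2, r was 0.992 and rho 0.990 (permutation p = 1e-05 for both, adjusted 2e-05 and 3e-05). For Col9a1 with Col9a2, r was 0.840 and rho 0.730 (permutation p = 3e-05 and 0.00077, adjusted 3.6e-05 and 0.00092). Leaving out the 2 libraries farthest from the median of the first gene gave r = 0.933, 0.989 and 0.687 for these pairs. On TPM the collagen IX pair had r = 0.331 and no longer passed.

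Collagen genes also went with defining genes of the cells known to make them. Col1a1 with the osteoblast gene Bglap had r = 0.851 and rho = 0.744 (permutation p = 2e-05 and 0.00056, adjusted 3e-05 and 0.00084). It was 0.652 without the 2 farthest libraries, 0.857 within the AP-2εCre line and 0.819 within the OMPCre line. In the OMPCre line it rested on the first cKO and the third Smad4 flox/flox libraries, the farthest 2, without which r was 0.187. Col17a1 with the basal keratin Krt5 had r = 0.952 and rho = 0.804 (permutation p = 1e-05 and 0.00011, adjusted 2e-05 and 0.00022), and 0.883 without the 2 farthest libraries. Within the lines it was 0.968 in AP-2εCre and 0.969 in OMPCre, where without the 2 farthest libraries 0.210 was left. Col2a1 with Acan, the core protein of cartilage aggrecan, had r = 0.703 and rho = 0.721 (permutation p = 0.00093 and 0.00097, adjusted 0.00093 and 0.00097), and 0.618 without the 2 farthest libraries. Within the lines it was 0.727 and 0.555, and the former rested on 2 libraries, without which r was 0.0328. By the form of the library name, r over the 12 libraries with letter names and the 6 with line names was 0.766 and 0.928 for Col1a1 with Bglap, 0.918 and 0.995 for Col17a1 with Krt5, and 0.607 and 0.756 for Col2a1 with Acan.

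**Figure D5:**
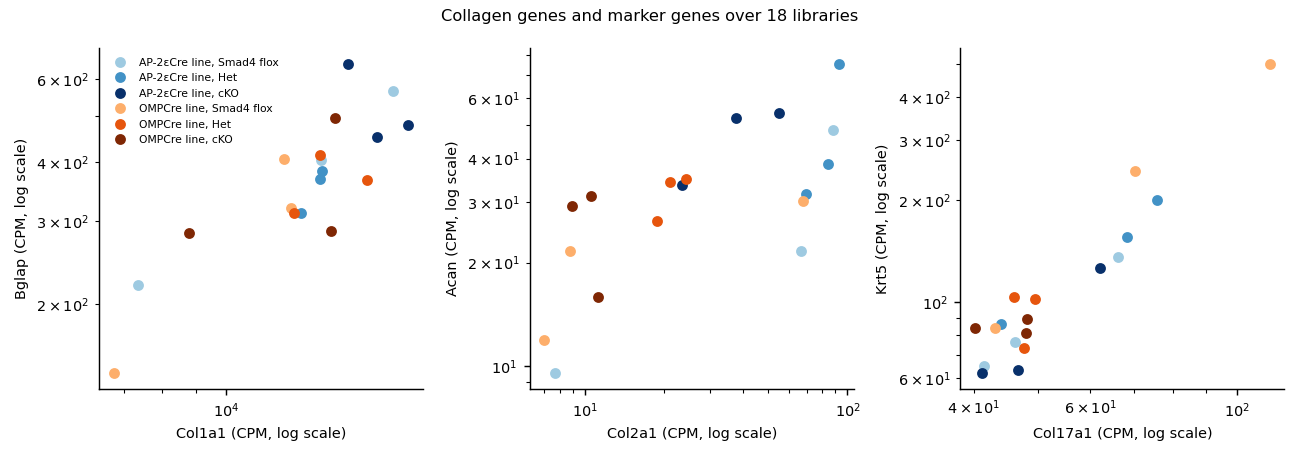
CPM of Col1a1 against Bglap, Col2a1 against Acan and Col17a1 against Krt5 on log axes, each point a library coloured by group. Bglap, Acan and Krt5 are higher where their collagen is higher, and the third Smad4 flox library of the OMPCre line lies at the low end for Col1a1 and at the high end for Col17a1.

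Enzymes and partners of collagen were examined in 5 lists. Of 27 processing enzymes tested in AP-2εCre cKOs, which hydroxylate, glycosylate, fold, export or trim collagen chains, 6 were higher and 2 lower at an unadjusted p under 0.05, the level that 10.2% of all genes tested reached there, and none was called. The lowest p belonged to Tmem38b (-0.35 ± 0.10 (SE) log2), an ion channel of the endoplasmic reticulum, and Adamts2 (0.38 ± 0.12 (SE)), which trims the N-terminal propeptide. All 5 cross-linking enzymes had estimates above 0, with Loxl1 (0.33 ± 0.13 (SE)) at an unadjusted p under 0.05. Of 10 collagen receptors 4 were higher at that level, led by Itga11 (0.47 ± 0.14 (SE)) and Itga2 (0.35 ± 0.14 (SE)), integrin chains that bind collagen. Of 14 matrix proteases and inhibitors 6 were higher and 1 lower, led by Ctsk (0.49 ± 0.11 (SE)), the collagen-degrading protease of osteoclasts, and Mmp11 (0.65 ± 0.22 (SE)). None of 17 fibril-binding proteoglycans and glycoproteins reached 0.05, and no gene of the 5 lists was called in any of the 6 comparisons. Heterozygotes had 4 of 27 processing enzymes higher at that level in each line, against 5.18% (AP-2εCre) and 5.54% (OMPCre) of all genes tested. In OMPCre cKOs only 1 gene of the 5 lists, the lysyl hydroxylase Plod1 (0.20 ± 0.08 (SE)), reached an unadjusted p under 0.05, against 3.95% of all genes tested.

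Markers of other cell types are given beside the collagens for AP-2εCre cKOs, where 10.2% of all genes tested had an unadjusted p under 0.05. Of 7 osteoclast markers all had estimates above 0 and 5, among them Ctsk, Ocstamp and Mmp9, had an unadjusted p under 0.05, with sums of 909 to 1130.3 CPM in cKO, 639.9 to 873 in Smad4 flox/flox and 647 to 824 in Het libraries. Ctsk and Mmp9 are also counted in the list of matrix proteases and inhibitors above. The 11 osteoblast and osteocyte markers were all above 0 (median 0.16), none at an unadjusted p under 0.05, with sums of 2105 to 2189.9, 1200.0 to 2308 and 1809 to 1877 CPM. Of 9 fibroblast markers none reached 0.05 (median 0.11). Of 8 basal epithelial markers 7 were below 0 and 4 had an unadjusted p under 0.05, beside the lower Col7a1. Of 8 pericyte and smooth muscle markers, cells that lie on the basement membranes where Col18a1 protein is found, 2, Tagln and Pdgfrb, were higher at that level, and of 8 endothelial markers 1, Vwf (-0.47 ± 0.08 (SE) log2), was lower. The endothelial sums were 247 to 1537 CPM in cKO, 278 to 575 in Smad4 flox/flox and 291 to 812 in Het libraries. The endothelial gene Pecam1 was at 77.2, 590 and 1367 CPM in the cKO libraries. Over both lines it was at 77.2 to 144 CPM in libraries named by line and at 183 to 1367 in those with letter names. Of the remaining lists, 2 neuronal markers were higher and 1 lower of 8, 1 glial marker was higher and 1 lower of 8, 1 of 6 blood markers was higher and none of 5 skeletal muscle markers tested reached 0.05. No marker was called in this comparison or at 0 in every library, and their part in the collagen values was not tested.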

How the data were processed

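Whole VNOs of female mice were profiled in 19 libraries by directional polyA+ mRNA-seq (75-cycle single reads). The authors quantified reads with Salmon 0.14.0, per the labels' processing notes, which also name DESeq2 1.22.2 and the build mm10/GRCm38. The deposited files hold, for 116248 transcripts, an estimated count, which need not be whole, and TPM, as the authors' Salmon wrote them. GENCODE vM21 (GRCm38) paired 116072 transcripts with a gene, and 176, with at most 0.032% of the counts, were left out. Counts were summed per gene over coding and noncoding transcripts and rounded. One library whose title and genotype label disagree entered no comparison.

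Genes were tested with edgeR 4.0.16 (R 4.3.3; TMM, filterByExpr, quasi-likelihood, two-sided) over all genes with Benjamini-Hochberg adjustment and called at an adjusted p under 0.05. Checked on simulated data, the fits recovered genes changed by a log2 fold of 1 in either direction. Smaller changes, which most member estimates are, were not simulated. Exact permutation tests on log2(CPM + 1) used 84 splits for 3 libraries against 6 (smallest p 0.012), 20 for 3 against 3 (0.1) and all splits for 6 against 6. Alternatives were DESeq2 1.42.0, other size factors and filters, length-scaled counts, the form of the library name (letter and number, or line and number, in 2 and 1 libraries of each group) as a covariate, a replicate block, other controls, and each library left out. Figures used Python 3.11.15 and matplotlib 3.10.9. Intervals between libraries are SDs, and p-values measure the spread between these libraries.

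Replicate numbers are shared between groups in the labels. The deviations from the group means of same-numbered libraries correlated at 0.177 to 0.608 in every pair of the OMPCre line and at -0.319 to 0.223 in the AP-2εCre line. In the OMPCre line, however, the third library of each group is also the one named by line. The mean correlation there was 0.272 for the same and -0.329 for the other form of name. Whether same-numbered libraries are pairs was not tested apart from that form. No 2 libraries agreed within sampling noise (lowest chi-square per gene 44.2).

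Named were the 12 members with the highest mean TPM in Smad4 flox/flox libraries, those with an unadjusted p under 0.05 in any comparison and the highest of each type, and, of the other lists, called genes or the lowest p. Others are given by range, and Col2a1, Col9a2, Col17a1 and Col11a1 by their pairs or pattern. The members, lists and tests were chosen with earlier results of these data known. Proteins and 8 of the members' promoters are not analysed here.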

Additional observations from a re-analysis of the deposited data

Results flagged for a closer look

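One library has the title of an AP-2εCre heterozygote and the genotype label of a cKO, and it was kept out of every comparison. In it 3 of 38 members (7.89%) had a TPM above that of all 12 control libraries, fewer in proportion than the 13.0% of 19465 genes. On CPM of each library's total, where length plays no part, 0 members did, against 7.97% of genes. Col11a2 was at 147 TPM, where the controls reached 134. Col7a1 was at 22.7 TPM against at most 22.0, and Col24a1 at 15.6 TPM against at most 14.1. No member was below all 12 controls.

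No member passed the interaction test for a cKO effect that differs between the 2 lines. Another criterion asked for all cKO libraries above the controls in 1 line and below them in the other. It could not be met, since no member was without overlap in OMPCre cKOs.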

How the results depend on the processing

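Of 115 alternative fits over the 6 comparisons, 114 called 0 members. The exception was DESeq2 in AP-2εCre cKOs, which called 1 member, Col18a1 (log2 0.54, adjusted p = 0.0395; over its other alternatives and left-out libraries the adjusted p was 0.174 to 0.734). Genes called by edgeR and by DESeq2 numbered 7 and 319 in AP-2εCre cKOs, 0 and 44 in OMPCre cKOs, 4 and 177 and 8 and 146 between heterozygotes and Smad4 flox/flox libraries of the AP-2εCre and OMPCre lines, 17 and 130 between the lines' controls, and 0 and 18 for the difference. With the replicate block 0 members were called in any comparison, the members' median in OMPCre cKOs was 0.01, and the 8 genes called between OMPCre heterozygotes and Smad4 flox/flox libraries became 0. In the AP-2εCre line, where the numbers do not pair the libraries, the block gave 2 called genes in cKOs and 6 between heterozygotes and Smad4 flox/flox libraries. Leaving out each library in turn left 0 members called, 0 at the lowest and 0 at the highest, in every comparison. The 16 single-gene differences kept their direction in all 277 alternative values, leaving out libraries included. They were picked for an unadjusted p under 0.05 in edgeR on these same libraries. Since the alternatives refit the same counts, a kept direction is no support for them.

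Neighbours in the TPM order that held in every library numbered 3, again 3 over 12 controls and with a pseudocount of 0.1, 3 to 4 with a library left out, and 5 per kilobase. Of the pairs, Col9a1 with Col9a2 lost its call on TPM (r = 0.331), and Col2a1 with Acan within the OMPCre line (r = 0.555) and within the 6 line-named libraries (r = 0.756), where fewer libraries were tested. By rho, calls were also lost in the OMPCre line for Col1a1 with Bglap, Col17a1 with Krt5, Col9a1 with Col9a2 and Col2a1 with Acan (each adjusted exact permutation p = 0.097), in the AP-2εCre line for Col2a1 with Acan (0.19), and by name for Col1a1 with Bglap (0.058, line names) and Col2a1 with Acan (0.069, letter names, permutation test), and on TPM for Col9a1 with Col9a2 (0.26). Having 3 libraries per group limits what can be called, and members at a few CPM, such as Col6a4, are the least precise.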

Other observations

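The collagen IV genes, left out of the 38, encode the main collagen of basement membranes: Col4a1 was at 259 to 458 CPM and Col4a2 at 240.0 to 420.0 over the 18 libraries, a spread narrower than that of Col1a1. The third Smad4 flox/flox library of the OMPCre line, lowest in Col1a1, had the highest Col4a1 of all (458 CPM) and a Col18a1 of 163 CPM, second to the first AP-2εCre cKO library.

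The median CV over the 12 controls was 0.25 for the 38 members and 0.14 for the 15838 genes whose mean reached 1 CPM, and 37 of 38 members were above the latter. The lowest was that of Col25a1 (0.134) and the highest those of Col10a1 (1.76), Col9a1 (0.897) and Col2a1 (0.744).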
